A study of Mus musculus with 15 samples.

Results

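The interferon-stimulated genes are a group of 43 genes named by symbol that interferons switch on, and 40 of them could be read among the 18193 genes measured in these livers. For each gene the probe set (a set of short oligonucleotides that reports 1 transcript) with the highest mean over the 15 arrays was used, and only probe sets annotated to that gene alone counted. Oas1g, Isg15 and Ifi44 had no such probe set and were not analysed here. The 40 genes had 65 probe sets in all, and 18 genes had more than 1. Mean levels of 7 of the 40 lay below 5 on the log2 scale, where signals of this array are close to background and differences are understated.

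The data come from whole liver of adult male mice, read on the Affymetrix GeneChip Mouse Genome 430 2.0 array, 1 array per pool of livers, in 5 groups of 3 pools. The study asked whether expression patterns left by malnutrition around birth are passed through fathers to their sons. IUGR F1 males (pools 4 to 6) had been exposed to 50% caloric restriction before birth, and ON F1 males (pools 7 to 9) had been overfed during suckling. IUGR F2 (pools 10 to 12) and ON F2 (pools 13 to 15) were adult male offspring of IUGR and of ON mice. Control pools 1 to 3 drew on untreated males of both generations together, so no generation had control arrays of its own. The number 3 in the titles is read as livers per pool. The labels give no strain, exact age, diet composition or litter, and do not tie an offspring pool to a father pool. Whether the pools of a group came from separate litters is not stated, and the p-values describe variation among pools only, which may be technical.

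Interferons are secreted proteins that alert cells to virus and other microbes. Type I interferons signal through their receptor and the kinases Jak1 and Tyk2 to transcription factors that include Stat2 and Irf9 and act at a DNA element called the interferon-stimulated response element (ISRE), while interferon gamma acts at a shorter element called GAS. In liver, hepatocytes as well as Kupffer cells (the resident macrophages), endothelial cells and lymphocytes respond, and the induced genes block viral RNA, sense nucleic acids, present antigen and attract T cells.

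Promoters were read for short cores of both elements. The 250 bases before the RefSeq start were searched on both strands for an ISRE-like core written GAAANNGAAA (TTTCNNTTTC on the other strand) and a GAS-like core written TTCNNNGAA. Promoters were listed for 32 of the 40 genes in RefSeq (GRCm38.p6), and Zbp1, Dhx58, Oas2, Parp9, Usp18, Parp14, Mx2 and Mx1 had no entry. The ISRE-like core lay in 14 of the 32 (43.8%), against 3.46% of 27025 genes with such promoters and 2.98% of all 32851 windows of this length. The GAS-like core lay in 8 of the 32 (25%), against 8.13% of genes and 7.02% of windows. Matches of the 2 cores were counted separately and may overlap. Of the 10 genes with the widest ranges across pools, 7 had an entry and 4 of these had an ISRE-like match, while Oasl2, Cxcl9 and Irf7 had neither core. A match is a description of letters, not a shown binding site. Ifit1, Oas1a, Ifit3 and Gbp3 are shown because they had ISRE-like matches and were among the 10 widest ranges across pools, and Irf7 because it was among those 10 without a match. Capitals mark the ISRE-like matches, and each sequence reads 5′ to 3′ along the gene's strand.
Ifit1: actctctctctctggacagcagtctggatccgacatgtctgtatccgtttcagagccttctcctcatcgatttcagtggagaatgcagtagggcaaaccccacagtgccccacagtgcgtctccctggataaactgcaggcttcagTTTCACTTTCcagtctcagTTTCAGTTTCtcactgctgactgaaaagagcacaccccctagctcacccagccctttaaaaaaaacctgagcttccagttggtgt
Oas1a: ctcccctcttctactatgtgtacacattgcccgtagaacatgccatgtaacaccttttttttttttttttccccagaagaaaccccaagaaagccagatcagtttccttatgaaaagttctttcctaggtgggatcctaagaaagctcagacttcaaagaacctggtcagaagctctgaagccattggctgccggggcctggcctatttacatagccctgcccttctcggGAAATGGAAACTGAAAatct
Ifit3: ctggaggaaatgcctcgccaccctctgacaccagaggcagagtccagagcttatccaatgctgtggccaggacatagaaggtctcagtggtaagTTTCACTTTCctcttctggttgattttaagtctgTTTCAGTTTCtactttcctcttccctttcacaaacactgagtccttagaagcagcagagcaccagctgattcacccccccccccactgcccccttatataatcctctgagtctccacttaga
Gbp3: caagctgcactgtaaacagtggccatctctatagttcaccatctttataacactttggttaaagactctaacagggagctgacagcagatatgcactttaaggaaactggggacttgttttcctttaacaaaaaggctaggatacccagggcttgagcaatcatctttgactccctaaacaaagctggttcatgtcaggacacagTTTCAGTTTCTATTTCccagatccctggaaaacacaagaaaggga
Irf7: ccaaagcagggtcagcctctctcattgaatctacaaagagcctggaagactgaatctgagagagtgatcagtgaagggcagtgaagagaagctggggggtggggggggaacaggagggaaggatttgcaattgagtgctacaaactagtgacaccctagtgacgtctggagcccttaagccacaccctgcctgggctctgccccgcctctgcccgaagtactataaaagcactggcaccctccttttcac
The Ifit1 sequence is chr19:34640639-34640888 on the + strand, with matches beginning 104 and 85 bases before the start. That of Oas1a is chr5:120907526-120907775 on the - strand, with 2 overlapping matches at 20 and 14 bases. Ifit3 (chr19:34583279-34583528, + strand) had matches at 156 and 122 bases, and Gbp3 (chr3:142559794-142560043, + strand) had 2 overlapping matches at 45 and 39 bases. The Irf7 stretch is chr7:141266425-141266674 on the - strand.

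ON F1 pool 8 was the highest of all 15 pools in 33 of the 40 genes, against 13.9% of all genes. Relative to the mean of the control pools, its median over the 40 genes was 0.78 on the log2 scale, and 36 of 40 lay above that mean. It stood at least 1 log2 unit above the control mean in 17 of 40 genes, against 0.324% of all genes. The other ON F1 pools had medians of -0.02 (pool 7) and -0.03 (pool 9), close to the control mean. No test was made of a single pool, and pool 8 had been singled out from earlier results on these data.

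**Figure D1:**
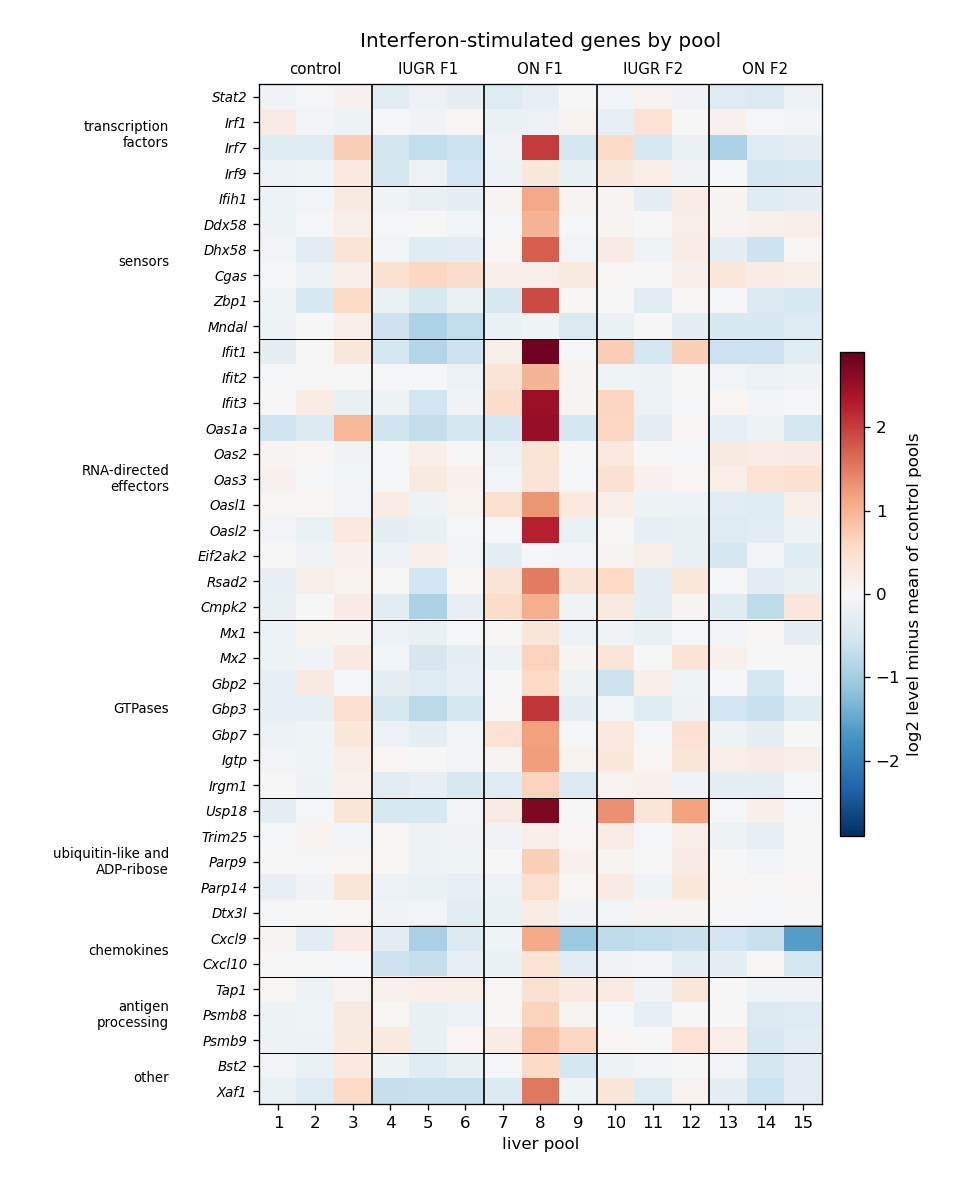
Heat map of the 40 interferon-stimulated genes (rows, grouped by role) in the 15 liver pools (columns, grouped by treatment), coloured by the log2 level minus the mean of the 3 control pools. Pool 8 is the highest pool in 33 of 40 rows, control pool 3 is above the control mean in 32, and the IUGR F1 columns are mostly pale blue.

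The pools without that excess also differed among themselves. Control pool 3 had a median of 0.20 above the control mean, with 32 of 40 genes above it, whereas control pools 1 and 2 had medians of -0.11 and -0.10. With pool 8 set aside, pool 3 was the highest of the 14 others in 15 of 40 genes, against 8.09% of all genes, and IUGR F2 pool 10 in 8 of 40, against 4.13%. IUGR F1 pools lay at -0.15, -0.22 and -0.19, IUGR F2 pools at 0.10, -0.08 and 0.05, and ON F2 pools at -0.07, -0.26 and -0.11. Thus all 3 IUGR F1 pools lay below the controls' lowest pool median, and control pool 3 lay above every pool other than pool 8. The median range of a gene over the pools was 1.15 log2 units with pool 8 and 0.74 without it.

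The RNA-directed effectors, some of which bind viral RNA, stood furthest up in pool 8, with a median of 1.29 over 11 genes and 9 of them highest there. Ifit1, which binds viral RNA lacking the host's cap methylation, measured 6.18, 6.46 and 6.77 in control pools 1 to 3, 5.96, 5.61 and 5.87 in IUGR F1, 6.64, 9.29 and 6.42 in ON F1, 7.19, 5.97 and 7.15 in IUGR F2 and 5.84, 5.87 and 6.15 in ON F2. Pool 8 thus lay 2.10 above the next pool (pool 10) and at 7.08 times the control mean, while the IUGR F1 pools lay below all controls. Its partner Ifit3 measured 5.68, 5.89 and 5.47 in control, 5.54, 5.13 and 5.57 in IUGR F1, 6.18, 8.18 and 5.75 in ON F1, 6.30, 5.52 and 5.63 in IUGR F2 and 5.74, 5.59 and 5.62 in ON F2. Pool 8 was 1.88 above the next pool, and the other 14 pools of Ifit3 overlapped between groups apart from pools 7 and 10 at the upper end. Ifit2, of the same family, was dim, at 4.27, 4.31 and 4.31 in control, 4.24, 4.25 and 4.13 in IUGR F1, 4.66, 5.29 and 4.38 in ON F1, 4.17, 4.16 and 4.30 in IUGR F2 and 4.21, 4.12 and 4.18 in ON F2. All 3 ON F1 pools of Ifit2 lay above every other pool.

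Oas1a makes the oligoadenylate messenger that turns on the nuclease RNase L. It measured 6.37, 6.55 and 7.92 in control, 6.36, 6.26 and 6.46 in IUGR F1, 6.45, 9.47 and 6.46 in ON F1, 7.54, 6.67 and 7.00 in IUGR F2 and 6.72, 6.81 and 6.44 in ON F2. Control pool 3 was the second highest, at 1.46 above the mean of the other control pools. Oas1a has close copies in the mouse genome that its probe set may not tell apart. The related Oasl2 measured 3.91, 3.80 and 4.28 in control, 3.73, 3.79 and 3.96 in IUGR F1, 3.97, 6.25 and 3.80 in ON F1, 4.04, 3.75 and 3.79 in IUGR F2 and 3.63, 3.70 and 3.84 in ON F2, so it rested near background except in pool 8. Oasl1, known to restrain production of Irf7, measured 6.79, 6.80 and 6.66 in control, 6.97, 6.61 and 6.85 in IUGR F1, 7.22, 8.04 and 7.03 in ON F1, 6.94, 6.61 and 6.57 in IUGR F2 and 6.44, 6.39 and 6.91 in ON F2. Like Ifit2, it was above all other pools in each of the ON F1 pools. Rsad2 (viperin) and its neighbour Cmpk2, a nucleotide kinase, lay 1.51 and 1.05 above the control mean in pool 8, and Oas2 and Oas3 lay 0.39 and 0.37 above it. Eif2ak2, the kinase PKR that halts translation, lay at -0.04 in pool 8 at the probe set used, whereas at both of its dimmer probe sets pool 8 was the highest, at 0.48 and 0.20 above the control mean.

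Among the sensors of foreign nucleic acids, 4 of 6 were highest in pool 8 and the median there was 1.05. Dhx58, a helicase that tunes RNA sensing, measured 6.40, 6.14 and 6.87 in control, 6.40, 6.11 and 6.15 in IUGR F1, 6.53, 8.20 and 6.38 in ON F1, 6.71, 6.34 and 6.68 in IUGR F2 and 6.20, 5.88 and 6.53 in ON F2. Zbp1, a sensor of Z-form nucleic acid that can trigger cell death, measured 5.36, 5.05 and 6.04 in control, 5.29, 5.04 and 5.28 in IUGR F1, 5.03, 7.40 and 5.51 in ON F1, 5.49, 5.17 and 5.52 in IUGR F2 and 5.43, 5.09 and 5.04 in ON F2. In both genes pool 8 stood more than 1 log2 unit above control pool 3, the next highest. Ifih1 and Ddx58, the RNA helicases MDA5 and RIG-I, lay 1.11 and 0.98 above the control mean in pool 8. Cgas and Mndal were not highest in pool 8 and are described with the IUGR F1 comparison.

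Transcription factors of the pathway divided. Irf7, which amplifies type I interferon production, measured 6.68, 6.65 and 7.74 in control, 6.48, 6.31 and 6.39 in IUGR F1, 6.92, 9.06 and 6.51 in ON F1, 7.57, 6.57 and 6.84 in IUGR F2 and 6.11, 6.66 and 6.75 in ON F2. Pool 8 was 1.32 above control pool 3, and all IUGR F1 pools were below the controls. Stat2, a transcription factor of type I interferon signalling, measured 5.92, 5.99 and 6.15 in control, 5.69, 5.86 and 5.77 in IUGR F1, 5.64, 5.78 and 6.01 in ON F1, 5.95, 6.13 and 5.92 in IUGR F2 and 5.64, 5.61 and 5.84 in ON F2. Its partner Irf9 measured 6.82, 6.88 and 7.29 in control, 6.51, 6.82 and 6.44 in IUGR F1, 6.83, 7.32 and 6.79 in ON F1, 7.31, 7.18 and 6.89 in IUGR F2 and 6.97, 6.48 and 6.53 in ON F2. Neither showed a pool 8 excess like that of Irf7. Stat2 was 0.24 below the control mean there (-0.24). Irf9 was highest there, at 0.32 above the control mean, but only 0.01 above the next pool. Irf1, which interferon gamma induces, was -0.16 from the control mean in pool 8.

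**Figure D2:**
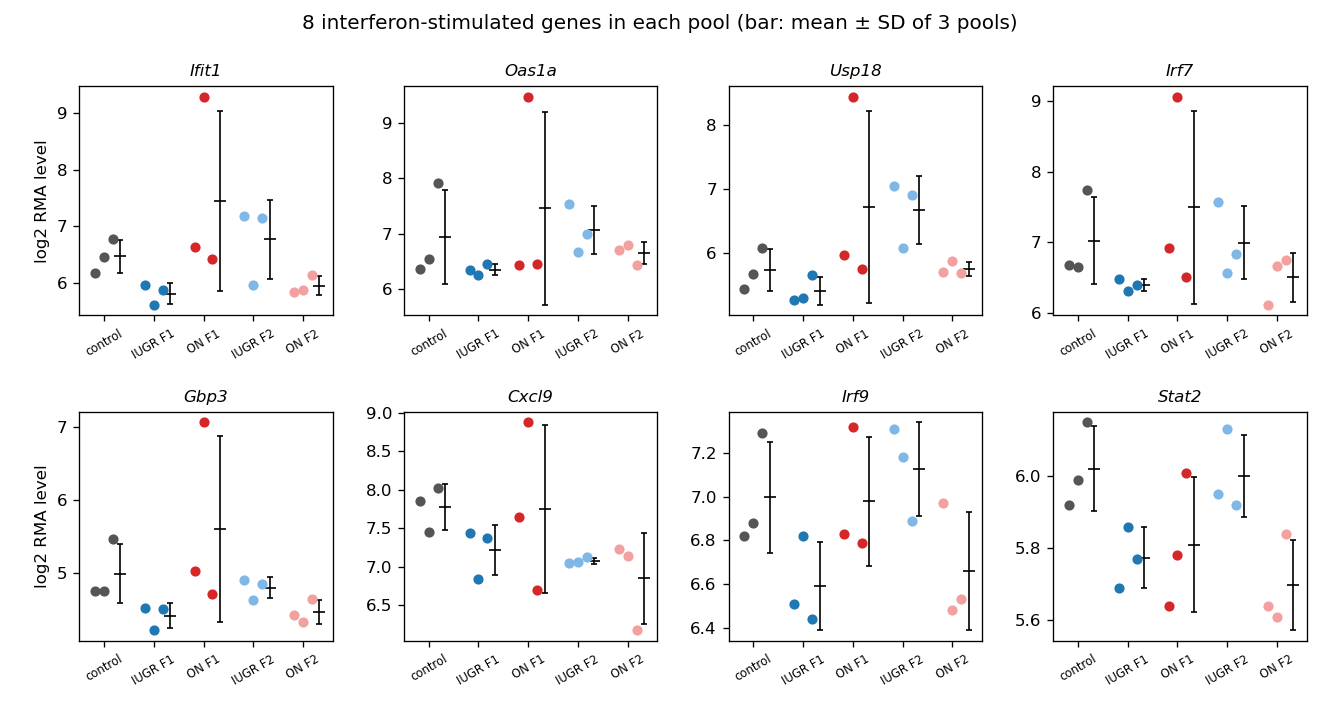
Log2 RMA level of 8 interferon-stimulated genes in each of 15 liver pools (points, 3 per group in pool order), with the mean ± SD of each group as a bar. In 7 of the 8 panels pool 8, the middle ON F1 point, is the highest, by 2.10 in Ifit1 and by 0.01 in Irf9, while Stat2 has no such point.

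The interferon-induced GTPases, some of which attack the membranes of microbes and their vacuoles, were all highest in pool 8 (7 of 7, median 0.67). Gbp3 measured 4.76, 4.76 and 5.46 in control, 4.52, 4.22 and 4.51 in IUGR F1, 5.03, 7.06 and 4.72 in ON F1, 4.91, 4.64 and 4.85 in IUGR F2 and 4.43, 4.34 and 4.65 in ON F2. Its neighbour Gbp7 measured 7.07, 7.12 and 7.56 in control, 7.09, 6.99 and 7.17 in IUGR F1, 7.67, 8.44 and 7.20 in ON F1, 7.54, 7.20 and 7.67 in IUGR F2 and 7.10, 6.99 and 7.25 in ON F2. Gbp3 lay below all controls in each of the IUGR F1 and ON F2 pools, while Gbp7 overlapped the controls in every group. In pool 8, Igtp lay 1.22 and Irgm1 0.67 above the control mean, and Mx1, Mx2 and Gbp2 lay between 0.36 and 0.66 above it.

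Of 5 genes of ISG15 conjugation, ubiquitin and ADP-ribose transfer, 4 were highest in pool 8. Usp18, which removes ISG15 from proteins and damps the type I receptor, measured 5.44, 5.67 and 6.08 in control, 5.26, 5.29 and 5.65 in IUGR F1, 5.97, 8.44 and 5.74 in ON F1, 7.05, 6.07 and 6.90 in IUGR F2 and 5.70, 5.88 and 5.68 in ON F2. Apart from pool 8, pools 10 and 12 were high. Parp9 lay 0.68, Parp14 0.47 and Dtx3l 0.22 above the control mean in pool 8, and Trim25, at 0.20, was second there.

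Cxcl9, a chemokine that draws T cells and is induced mainly by interferon gamma, measured 7.86, 7.45 and 8.02 in control, 7.44, 6.84 and 7.37 in IUGR F1, 7.65, 8.88 and 6.70 in ON F1, 7.05, 7.06 and 7.12 in IUGR F2 and 7.23, 7.14 and 6.17 in ON F2. All pools of both F2 groups and of IUGR F1 lay below the lowest control pool, while pools 8 and 9 of the same ON F1 group stood far apart. Cxcl10, which binds the same receptor, measured 5.10, 5.11 and 5.06 in control, 4.50, 4.42 and 4.86 in IUGR F1, 4.90, 5.48 and 4.79 in ON F1, 4.98, 5.00 and 4.83 in IUGR F2 and 4.81, 5.12 and 4.59 in ON F2. Its 3 IUGR F1 pools and 3 IUGR F2 pools lay below the controls. Psmb9, a subunit of the immunoproteasome that cuts peptides for antigen display, measured 8.29, 8.29 and 8.71 in control, 8.72, 8.21 and 8.49 in IUGR F1, 8.64, 9.30 and 9.02 in ON F1, 8.48, 8.43 and 8.85 in IUGR F2 and 8.63, 7.96 and 8.13 in ON F2. Its ON F1 pools overlapped the controls only at pool 7. The adjacent genes Tap1, a peptide transporter, and Psmb8 lay 0.44 and 0.64 above the control mean in pool 8. Xaf1, linked to cell death, measured 6.34, 6.16 and 7.09 in control, 5.87, 5.89 and 5.89 in IUGR F1, 6.14, 8.06 and 6.40 in ON F1, 6.88, 6.15 and 6.63 in IUGR F2 and 6.25, 5.90 and 6.20 in ON F2. The IUGR F1 pools of Xaf1 were nearly equal and below all controls. Bst2 (tetherin), which holds virus at the cell surface, lay 0.56 above the control mean in pool 8.

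Of the 25 further probe sets of the 40 genes, 13 had their highest value in pool 8. For Rsad2 the further probe sets lay 1.66 and 0.58 above the control mean there, beside 1.51 at the one used. The further probe set of Zbp1 lay 1.66 above it, beside 1.92. Other further probe sets, all dimmer than those used, did not repeat the size. Those of Dhx58 lay at 0.33 and 0.20 beside 1.72, and that of Xaf1 at 0.22 beside 1.54. That of Cmpk2 lay at 0.37 beside 1.05, and those of Ddx58 at 0.68 and 0.13 beside 0.98. Genes with an ISRE-like match in the 250 bases had a median excess of 0.93 in pool 8 (range -0.24 to 2.82), and those without had 0.92 (range -0.16 to 2.26).

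In ON F1 against control, no interferon-stimulated gene passed an adjusted p of 0.05 in limma, where 0.0220% of all genes did. By direction 30 of 40 were higher and 10 lower, with a median of 0.26 against 0.02 for all genes, and 9 had an unadjusted p under 0.05, against 14% of all genes. Oasl1 (0.68 ± 0.21, limma adjusted p = 0.194), Ifit2 (0.48 ± 0.16, 0.207) and Psmb9 (0.56 ± 0.20, 0.251) had the smallest p. Ifit1 differed by 0.98 ± 0.54 and Usp18 by 0.99 ± 0.50, with only pool 8 above all other pools in each. Without pool 7 or without pool 9, 17 of the 40 had an unadjusted p under 0.05, against 13.7% and 14.2% of genes in those fits. Without control pool 1 or 2, or over only the groups compared, 4 did, against 13%, 12.8% and 10.2%. Only Ifit2, Oasl1 and Rsad2 had all 3 ON F1 pools above all controls, against 10.2% of genes.

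Without pool 8 the direction turned. Of 40 genes 15 were higher and 25 lower, the median was -0.05, and 4 had an unadjusted p under 0.05, against 12.3% of genes in that fit. Oas1a went from 0.52 to -0.49, Irf7 from 0.47 to -0.31, Gbp3 from 0.61 to -0.12 and Xaf1 from 0.34 to -0.26. Oasl1 (0.37), Ifit2 (0.22), Rsad2 (0.37) and Psmb9 (0.40) kept a positive difference in pools 7 and 9. The genes at an unadjusted p under 0.05 were then Ifit2 and Oasl1, higher, and Irgm1 (-0.39) and Mndal (-0.30), lower, while the most negative differences were those of Cxcl9 (-0.61) and Oas1a. Pools 7 and 9 lay above all controls in 3 genes, against 14.9% of all genes, and below all controls in 4, against 12.3%.

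**Figure D3:**
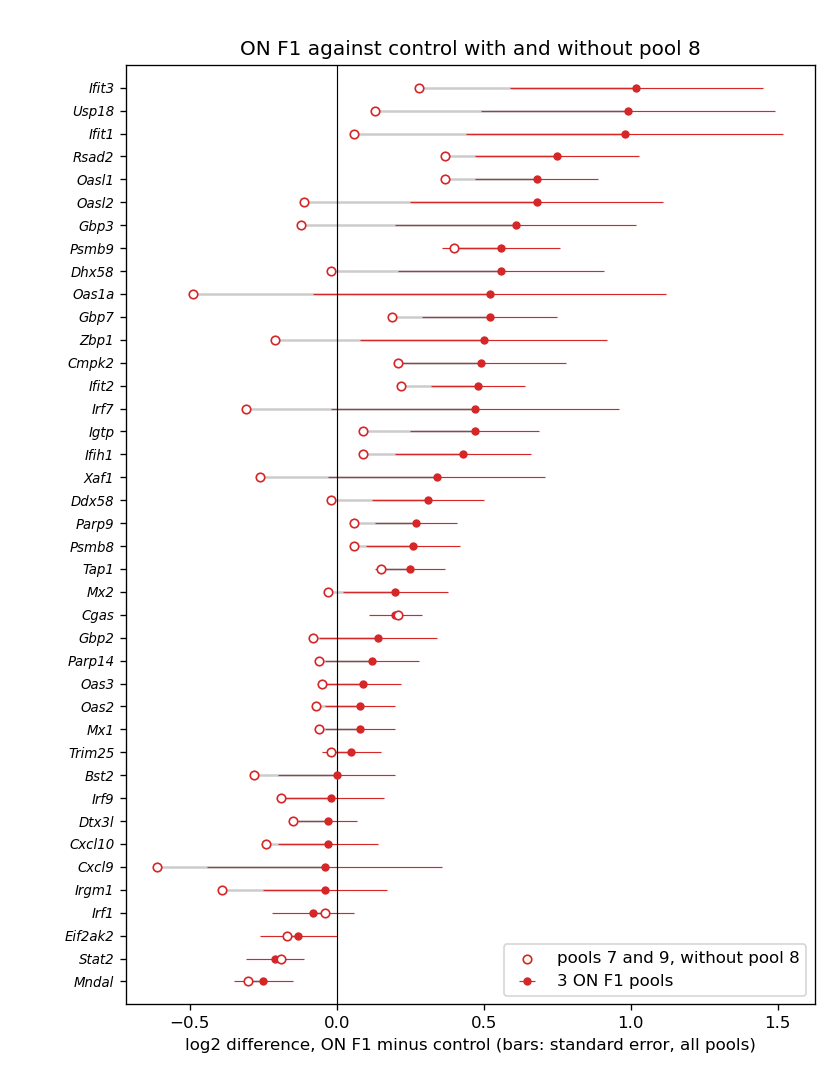
Difference between ON F1 and control on the log2 scale for each of 40 genes, with all 3 ON F1 pools (filled, bar = standard error from limma) and with pools 7 and 9 alone (open). Most open points lie near 0, and those of Oas1a, Irf7 and Xaf1 lie on the other side of it.

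In IUGR F1 against control, most of the group lay lower: 34 of 40 genes were lower and 6 higher, with a median of -0.21 against 0.01 for all genes. The share of genes called was 0 of 40 and 0% overall. An unadjusted p under 0.05 was reached by 5 of the 40, against 8.43% of all genes, with 4 of them lower. Groups did not overlap, with IUGR F1 below control, in 13 of 40 genes, against 5.89% of all genes. Besides Ifit1, Ifit2, Irf7, Irf9, Stat2, Gbp3, Cxcl9, Cxcl10, Xaf1 and Mndal these were Cmpk2, Dtx3l and Irgm1. IUGR F1 lay above control without overlap in 2 of 40 genes, Cgas and Tap1, against 8.59% of all genes. Cxcl10 differed by -0.50 ± 0.17 (limma adjusted p = 0.474), Irf9 by -0.41 ± 0.18 and Stat2 by -0.25 ± 0.10. Without pool 8, whose spread enters the error that all groups share, 11 of the 40 had an unadjusted p under 0.05, against 9.07% of genes, and 0 were called. Fitted over only the groups compared, 13 of the 40 did, against 8.81% of genes. Without IUGR F1 pool 4 or 6, 3 did, against 7.32% and 6.35%. Without control pool 3 the median was -0.10, with 30 of 40 lower and 3 at an unadjusted p under 0.05, against 5.66% of genes.

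Mndal had the smallest p of the group. It belongs to the PYHIN family of DNA-binding interferon-induced proteins, and measured 5.67, 5.81 and 5.96 in control, 5.21, 4.92 and 5.11 in IUGR F1, 5.63, 5.68 and 5.39 in ON F1, 5.63, 5.80 and 5.55 in IUGR F2 and 5.38, 5.38 and 5.43 in ON F2. Every IUGR F1 pool lay below every other pool, and the difference from control was -0.73 ± 0.10 (limma adjusted p = 0.0829). Its dimmer probe set gave -0.81, again with the IUGR F1 pools lowest, and the mean of both probe sets gave -0.77 with an adjusted p of 0.0355. The F test over the 5 groups called Mndal (limma adjusted p = 0.0404) as the 1 gene of the 40, against 0.187% of all genes. That call was lost in 13 of 15 fits with a pool left out, where its adjusted p reached 0.0928, and remained without control pool 1 or ON F1 pool 9. The probe set used is of a type whose probes may match related transcripts, and Mndal has close relatives in the same family.

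Cgas, the cytosolic DNA sensor that makes the messenger for Sting1, ran the other way. It measured 4.48, 4.36 and 4.72 in control, 4.96, 5.13 and 5.02 in IUGR F1, 4.67, 4.70 and 4.78 in ON F1, 4.55, 4.54 and 4.67 in IUGR F2 and 4.82, 4.74 and 4.68 in ON F2. Each IUGR F1 pool lay above every other pool, by 0.52 ± 0.09 against control (limma adjusted p = 0.202). At the other probe set, also dim, the IUGR F1 difference was 0.19 and the pools overlapped those of the ON groups.

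**Figure D4:**
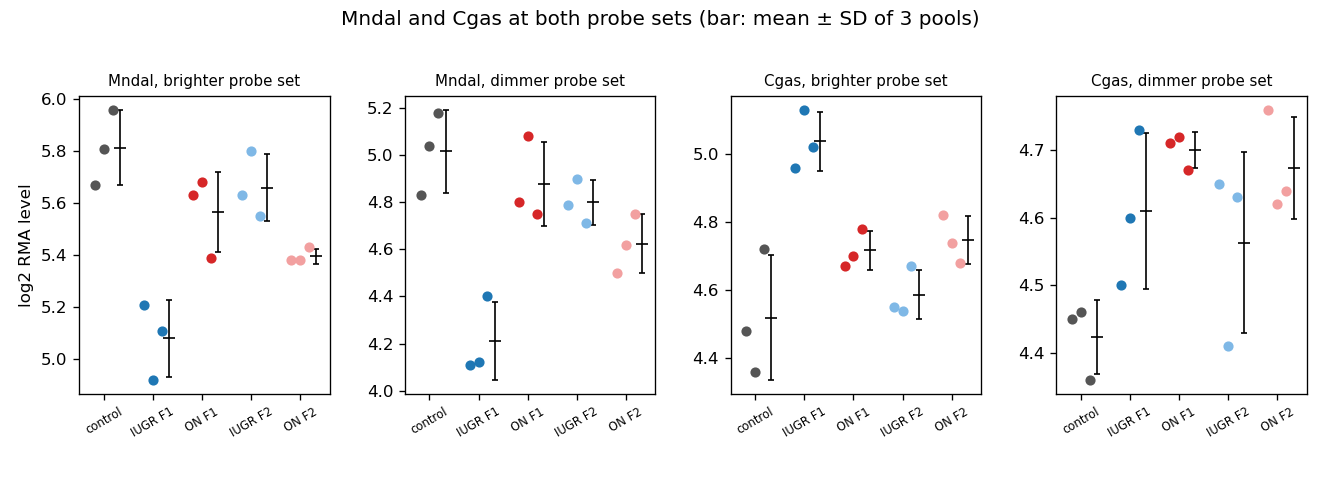
Log2 RMA level of Mndal and Cgas at both of their probe sets in each pool (points), with the mean ± SD of 3 pools per group. The IUGR F1 points of Mndal are the lowest at both probe sets, whereas those of Cgas are the highest only at the brighter one.

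Levels in the offspring of IUGR mice lay nearer the controls. In IUGR F2 against control 26 of 40 genes were higher and 14 lower, with a median of 0.05, and 0 were called (0% of all genes). The counts moved with single pools: without control pool 2, 19 were higher and 21 lower (median -0.02), without control pool 3, 32 and 8 (0.13), and without IUGR F2 pool 10, 21 and 19. None of the 40 had an unadjusted p under 0.05, against 7.05% of all genes, while without pool 8, 3 did (7.63%). Usp18 had the smallest p, at 0.94 ± 0.50 (limma adjusted p = 0.736), followed by Cxcl9 at -0.70 ± 0.40. Against IUGR F1, IUGR F2 lay higher in 37 of 40 genes with a median of 0.21, 0 called (0.0110% of all genes) and 6 with an unadjusted p under 0.05 (11.4% of all genes). All 3 IUGR F2 pools exceeded all IUGR F1 pools in 13 of 40 genes, against 7.27% of genes. Mndal differed there by 0.58 ± 0.10 (limma adjusted p = 0.112) and Cgas by -0.45 ± 0.09 (0.159). Without pool 8, 15 of 40 had an unadjusted p under 0.05, against 12.3% of genes, and over only the groups compared 18 did, against 13.5%. Markers of other cells lay lower in IUGR F2 than in IUGR F1: 10 of 10 of sinusoidal endothelium (median -0.27), 7 of 8 of B and plasma cells (-0.26, 4 at an unadjusted p under 0.05) and 9 of 12 of T and NK cells (-0.12, 4 at such a p). Kupffer cell markers were higher in 13 of 16 (0.18) and acute phase genes in 19 of 19 (0.11). By pool, Kupffer medians from the control mean were -0.36, -0.48 and -0.44 in IUGR F1 and -0.48, 0.14 and -0.34 in IUGR F2. Pools 10 and 12 thus lay close to the IUGR F1 pools, and pool 11 lay above them. Endothelial medians were 0.02, 0.05 and 0.2 in IUGR F1 and -0.31, 0.01 and -0.26 in IUGR F2, low in pools 10 and 12. The part of these lists in the comparison was not tested.

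In ON F2 against control 31 of 40 genes were lower, with a median of -0.19, and 0 were called (0% of all genes). An unadjusted p under 0.05 was found for 6 (15.1% of all genes), 4 of them lower. Cxcl9, Gbp3, Ifit1, Ifit2, Mndal and Stat2 had all ON F2 pools below all controls, 6 of 40 against 12.1% of genes. Mndal differed by -0.42 ± 0.10 (limma adjusted p = 0.133) and Stat2 by -0.32 ± 0.10 (0.190). Oas2 and Oas3 had all ON F2 pools above all controls, 2 of 40 against 8.95% of genes. Without control pool 3 or ON F2 pool 15, 3 of 40 had an unadjusted p under 0.05, against 12.0% and 12.9% of genes.

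ON F2 against ON F1 carried pool 8 on its other side. Of 40 genes 35 were lower, the median was -0.32, 0 were called (1.43% of all genes), and 16 had an unadjusted p under 0.05, all lower (19.3% of all genes). Oasl1 (-0.85 ± 0.21, limma adjusted p = 0.0583), Ifit2 (-0.61 ± 0.16, 0.0634) and Psmb9 (-0.75 ± 0.20, 0.0704) had the smallest p. ON F2 pools all lay below ON F1 pools in 11 of 40, against 14% of genes. Without pool 8 the median was -0.12 with 29 of 40 lower, and 7 had an unadjusted p under 0.05 (18.7% of genes), 5 lower and 2 higher. The 2 higher were Oas3 (0.41) and Oas2 (0.3). Ifit2 (-0.35) and Oasl1 (-0.55) had the smallest p in that fit. Over only the groups compared, with pool 8 kept, 9 had an unadjusted p under 0.05, against 15.1% of genes. Without pool 9, 3 genes passed: Gbp7 (-0.94, limma adjusted p = 0.0385), Ifit2 (-0.81, 0.0204) and Oasl1 (-1.05, 0.0319), and without pool 15 only Oasl1 did (-1.02, 0.0428).

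Between the lineages, IUGR F1 lay lower than ON F1 in 36 of 40 genes, with a median of -0.48. None was called (0.0110% of all genes), 23 had an unadjusted p under 0.05 (6.35% of all genes), and 16 did not overlap with IUGR F1 lower (5.85% of genes). Without pool 8 the median was -0.16, 32 were lower, and 8 had an unadjusted p under 0.05 (6.85% of genes). Without IUGR F1 pool 5, 14 did (4.71% of genes). Mndal (-0.49 ± 0.10, limma adjusted p = 0.292) and Ifit2 (-0.57 ± 0.16, 0.588) had the smallest p with all pools. Between the offspring groups, IUGR F2 lay above ON F2 in 34 of 40, with a median of 0.22, 0 called (0.00550% of all genes), 5 with an unadjusted p under 0.05 (10.1%) and 4 without overlap, Mndal, Parp9, Stat2 and Usp18 (8.79%). Over only the groups compared 11 had such a p (11.1% of genes), and without pool 8, 9 did (10.9%). Without IUGR F2 pool 10 or an ON F2 pool, 2 or 3 did, against 7.22% to 10.1% of genes. Stat2 differed by 0.30 ± 0.10 (limma adjusted p = 0.383) and Irf9 by 0.47 ± 0.18 (0.404). The difference of the lineage differences between generations was positive in 37 of 40 genes, with a median of 0.64. It was called in 0 (0.0110% of all genes) and had an unadjusted p under 0.05 in 23 (7.71%), and in 15 (5.99%) without IUGR F1 pool 5. For Mndal it was 0.75 ± 0.15 (limma adjusted p = 0.158), and without pool 8 the median over the 40 genes was 0.35. These comparisons share arrays, so their values are given side by side and were not set against each other.

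Genes that start and relay the pathway had medians close to the control mean in pool 8, at 0.09 for ligands and -0.11 for receptors and kinases. No gene of the lists that follow was called by limma in any comparison. Over all genes, 13.9% were highest in pool 8, the share to set beside the counts below. Of 21 interferon genes listed, 10 could be read, nearly all close to background, and Ifna1 was the only one highest in pool 8 (5.11). It differed by 0.46 ± 0.12 in ON F1 against control. Among 10 receptor chains and kinases, none was highest in pool 8, and the type I receptor chain Ifnar2 lay lower in ON F1 by -0.30 ± 0.09. Of 14 genes that relay sensing, 3 were highest in pool 8, with the median at -0.01. Sting1, which answers to Cgas, differed by -0.39 ± 0.13 in ON F1, and the double-stranded RNA receptor Tlr3 by 0.27 ± 0.11. Of 9 inhibitors of the pathway 2 were highest in pool 8. The receptor brake Socs1 differed by 0.34 ± 0.10, and Adar, which edits double-stranded RNA, by 0.22 ± 0.10, with its highest value in pool 8 (7.30).

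Beyond the group, 71 other interferon-inducible genes could be read of 83 listed. Pool 8 was highest in 38 of the 71, against 13.9% of all genes, with a median of 0.38 above the control mean. It lay above the control mean in 66 of the 71, against 35 for pool 7 and 27 for pool 9. In ON F1 against control 52 of the 71 were higher, with a median of 0.11, and without pool 8, 32 were higher and 39 lower, with a median of -0.04. In IUGR F1 against control 52 were lower, with a median of -0.10. The smallest p in ON F1 belonged to Parp11, which measured 6.12, 6.21 and 5.82 in ON F1 against 5.40, 5.62 and 5.71 in control (0.47 ± 0.12). Those pools did not overlap. The checkpoint ligand Cd274 differed by 0.45 ± 0.13. In IUGR F1, Ube2l6, the enzyme that hands ISG15 to its ligase, measured 5.12, 5.09 and 4.87 against 5.46, 5.66 and 6.00 in control (-0.68 ± 0.17), again without overlap. Slfn8 differed by -0.47 ± 0.14 and the DNA sensor Aim2 by -0.30 ± 0.09.

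The liver identity of the pools was checked on hepatocyte markers, which were bright on every array (Alb averaged 14.43, Apoa1 14.21 and Ttr 14.09), and 0 of 9 were highest in pool 8. Over all genes, 13.9% were highest in pool 8, the share to set beside each such count here. In a whole tissue, fewer cells of a type and less RNA per cell cannot be told apart. T and NK cell markers lay 0.21 above the control mean in pool 8 by median, 4 of 12 were highest there, and their summed level (log2 of the summed signals) was 8.29 there, 8.04 in all controls, 8.17 to 8.22 in IUGR F1, 8.04 to 8.06 in IUGR F2 and 8.12 to 8.17 in ON F2. Cd3e was 5.83 and Cd4 5.96 in pool 8, near the low end of the array's scale. Of 9 plasmacytoid dendritic cell markers 3 were highest in pool 8 (summed level 8.84, against 8.57 to 8.74 in control, 8.58 to 8.68 in IUGR F1, 8.57 to 8.80 in IUGR F2 and 8.61 to 8.78 in ON F2). The summed level of B and plasma cell markers was 9.14 there, below the 10.22 to 11.09 of control, 9.88 to 10.44 of IUGR F1 and 9.32 to 11.11 of ON F2, and within the 8.70 to 9.17 of IUGR F2. Ighm was 8.46 there against 9.91 to 10.83 in control and 7.89 to 8.59 in IUGR F2. None of 16 Kupffer cell, 6 monocyte, 10 endothelial or 19 acute phase genes was highest in pool 8, and 1 of 10 neutrophil markers was. The 3' over 5' signal of the control transcripts, which rises as RNA is shortened, was high in pool 8 (2.22 for actin and 1.43 for Gapdh on the log2 scale) and in pool 12 (2.28 and 1.45), against 1.76 to 2.10 and 1.08 to 1.30 in the others. The part of these markers and of RNA length in the pool 8 values was not tested.

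Kupffer cell markers also lay lower in IUGR F1. In IUGR F1 against control 15 of 16 lay lower, with a median of -0.47 and 8 at an unadjusted p under 0.05, against 8.43% of all genes. Their summed level was 11.64 to 11.89 in IUGR F1, 11.75 to 12.15 in control, 11.96 to 12.08 in ON F1, 11.61 to 12.12 in IUGR F2 and 12.16 to 12.28 in ON F2. Cd5l differed by -0.65 ± 0.25 and C1qa by -0.53 ± 0.18. In control pool 3, where the interferon-stimulated genes were at 0.20, these markers lay at 0.29. In pool 10 the Kupffer markers were at -0.48 and the interferon-stimulated genes at 0.10, and in ON F2 pool 13 they were at 0.47 and -0.07. Acute phase genes lay lower in 18 of 19 in IUGR F1 and in 18 of 19 in ON F1, with a median of -0.30 in each, and pool 7 was the lowest of 15 in 18 of 19. T and NK cell markers lay higher in 11 of 12 in IUGR F1, with a median of 0.14. The part of these lists in the IUGR F1 and ON F1 values was not tested.

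**Figure D5:**
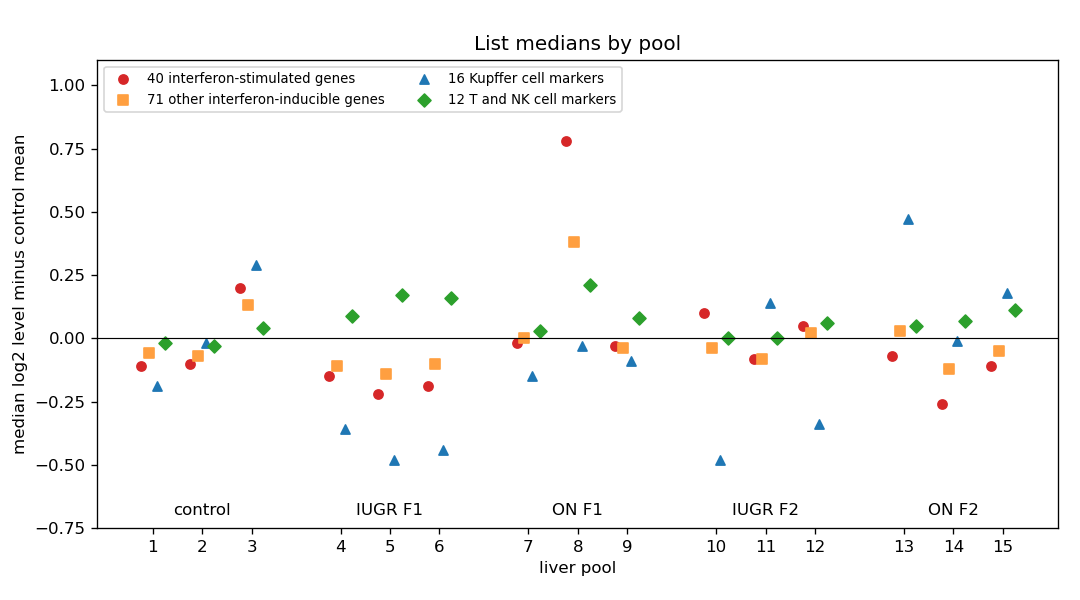
Median log2 level minus the control mean in each liver pool for the 40 interferon-stimulated genes, 71 other interferon-inducible genes, 16 Kupffer cell markers and 12 T and NK cell markers. Pool 8 stands out in both interferon lists (0.78 and 0.38), and the Kupffer markers are low in all 3 IUGR F1 pools (-0.36, -0.48 and -0.44).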

How the data were processed

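RNA of 15 liver pools was hybridised to 1 array each, and titles gave the groups. The authors deposited log2 levels for each probe set, made with RMA (robust multi-array average) per the submitters' processing notes, with no version named there. RMA normalises arrays by quantiles and compresses dim signals. Array medians were 4.60 to 4.68, and no arrays were identical. Precision is limited by the number of arrays, and a difference had a median standard error of 0.104.

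Of 45101 probe sets 64 controls were left out. Of the other 45037, 34945 had 1 gene symbol, 932 several and 9160 none, and the last 2 kinds named no gene. Tests used limma 3.58.1 in R 4.3.3, with 1 linear model of 5 group means with empirical Bayes moderation, two-sided, with Benjamini-Hochberg adjustment over all 18193 genes and a threshold of 0.05. Errors after ± are standard errors. The fit was tested on simulated data. Genes given with every pool were those called, those with the smallest p in a comparison (by role in ON F1 against control), and the 10 widest ranges; Rsad2 and other genes were added in clauses. Members and lists were chosen with earlier results of these data known. Alternatives were the mean of all probe sets, genes with a mean of at least 5, trend and robust moderation, only the groups compared, array weights, a second quantile normalization and each pool left out.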

Additional observations from a re-analysis of the deposited data

How the results depend on the processing

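In IUGR F1 against control 1 of the 40 genes, Mndal, was called with the mean of all probe sets, with array weights and with a second quantile normalization, and 0 with each pool left out. In IUGR F2 against IUGR F1 array weights called 1, Mndal, and the median difference was 0.17 to 0.28 with 1 pool left out, highest without pool 11. In ON F2 against ON F1, 1 was called over genes with a mean of at least 5 (Oasl1), where fewer genes were tested, and 0 to 3 with 1 pool left out. The interaction median was 0.35 to 0.77 with 1 pool left out, lowest without pool 8. The F test called 0 to 1 genes with 1 pool left out, and without control pool 3 that gene was Cgas (limma adjusted p = 0.0449) in place of Mndal (0.0643). In ON F1 against control, Cxcl10 (-0.03) ranged from -0.24 without pool 8 to 0.05 without pool 7 and 0.10 without pool 9, and Xaf1 (0.34) from -0.26 without pool 8 to 0.71 without pool 7. The causes were not tested. The other 375 summary values kept their count of called genes, or moved by less than the spread between pools, whatever their sign. Pool 8 widens that spread in ON F1. These values therefore include the ON F1 median against control, which was 0.26 with pool 8 and -0.05 without it. No paired analysis was possible because the labels number the pools 1 to 15 and pair none.

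With 3 pools a group the precision is limited, and pooling hides the spread between single mice. Signals below 5 lie near background, where differences are understated, and this holds for 7 of the 40 genes. Pool 8 widens the error that all groups share in the fit.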
